A study of Mus musculus with 9 samples.

Results

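The RNA levels of 7 genes of glycine signalling were compared between the dorsal, intermediate and ventral mouse spinal cord. The genes were Slc6a5 and Slc6a9, which encode the glycine transporters GlyT2 and GlyT1, Glra1, Glra2, Glra3 and Glrb, which encode glycine receptor subunits, and Gphn, which encodes gephyrin. They were chosen by gene symbol, by taking every probe set that the platform annotation assigns to one of them, and so make up 7 of the 18193 genes and 14 of the 45037 probe sets on the array. A probe set is a group of short probes that together report 1 transcript or part of it. The study asks about genes linked to dystonia in spinal circuits of GABAergic interneurons, which release the inhibitory transmitter GABA. Each of 3 mice of the GAD65-GFP genotype, aged 6 days after birth (p6), gave 1 piece of each region (dorsal, intermediate, ventral), so that each region had n = 3 and the animal could be matched across regions. All 9 samples carried the same genotype, in which the promoter of the gene for the GABA-synthesising enzyme GAD65 drives green fluorescent protein, and the labels name no treatment. They mention no sorting of fluorescent cells, so the pieces are treated as whole tissue, in which fewer cells of a type and less RNA per cell cannot be told apart.

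Glycine is the main fast inhibitory transmitter of the spinal cord beside GABA. Glycinergic neurons take glycine back up through GlyT2 and load it into vesicles with the transporter encoded by Slc32a1, while GlyT1, found mostly on astrocytes, clears it from the cleft. The receptor is a chloride channel built from alpha subunits, which bind glycine, and the beta subunit, which binds gephyrin, the scaffold that holds the receptor under the terminal. The alpha 2 subunit is known as the form of the embryonic and newborn cord, alpha 1 as the form that replaces it with age, and alpha 3 as a form concentrated in the superficial dorsal horn.

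All values are on a log2 scale, so that a difference of 1 is a doubling. The scale was inferred from the range of the values, 2.15 to 16.27, since no label states it. On each array, 36.0% to 36.3% of probe sets had the lowest value that occurs, called the floor here, and array medians lay between 3.66 and 3.75. Values after ± are the SD of the 3 arrays of a region for levels and the standard error of the model for differences. Differences were tested with limma with the animal as a block, with Benjamini-Hochberg adjustment over 13959 genes and calls made at 0.05. Each gene was read from its brightest probe set: 1442177_at for Slc6a5, 1417636_at for Slc6a9, 1437139_at for Glra1, 1434098_at for Glra2, 1457747_at for Glra3, 1459850_x_at for Glrb and 1426462_at for Gphn. Genome positions of the probe sets were not used here, and levels of different probe sets are not compared with each other.

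All 7 genes differed between regions by the F test, by which 58% of all genes tested were called. Here and below, all genes tested include some that are flat near the floor, such as Slc6a18, because the filter lay at 2.146. The mean levels of the 7 genes lay at percentiles 77.3 to 98.8 of all genes. Shares called among genes of like level were not computed, so the shares of all genes are not matched for level. In the comparison of the intermediate with the dorsal region, 5 of the 7 were higher in the intermediate (Slc6a5, Slc6a9, Glra1, Glra2 and Glrb), 0 were lower and 2 were not called, where 15.9% of all genes were called higher and 14.2% lower. Against the ventral region, 6 of the 7 were higher in the intermediate and 1, Slc6a9, was lower, where 23.4% of all genes were called higher and 24.9% lower. Between the outer regions, Glra2, Glra3, Glrb and Gphn were higher in the dorsal region and Slc6a5, Slc6a9 and Glra1 in the ventral region, where 24.5% of all genes were called higher in the dorsal region and 28.2% lower. Slc6a5, Glra1, Glra2 and Glrb were called highest in the intermediate region, against each other region, a pattern that 6.25% of all genes had. Without animal 1 only Slc6a5 and Glra2 kept it, a count of 2; without animal 2 the count was 3 (Slc6a5, Glra2 and Gphn) and without animal 3 it was 3 (Slc6a5, Glra1 and Glra2). The 3 values of 1 region did not overlap those of the other for 5 genes in the intermediate and dorsal regions and for all 7 in both other comparisons. The share of all genes without overlap was not computed, so these counts only describe the 7 genes and do not set them apart. The median difference over the 7 genes was 0.67 for intermediate minus dorsal, 0.35 for intermediate minus ventral and 0.15 for dorsal minus ventral, beside 0.00 over all genes in each. The comparisons share their arrays and are not independent of each other. Without animal 3, 2 rather than 4 of the 7 were called higher in the dorsal than in the ventral region, the calls of Glrb and Gphn being lost.

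**Figure D1:**
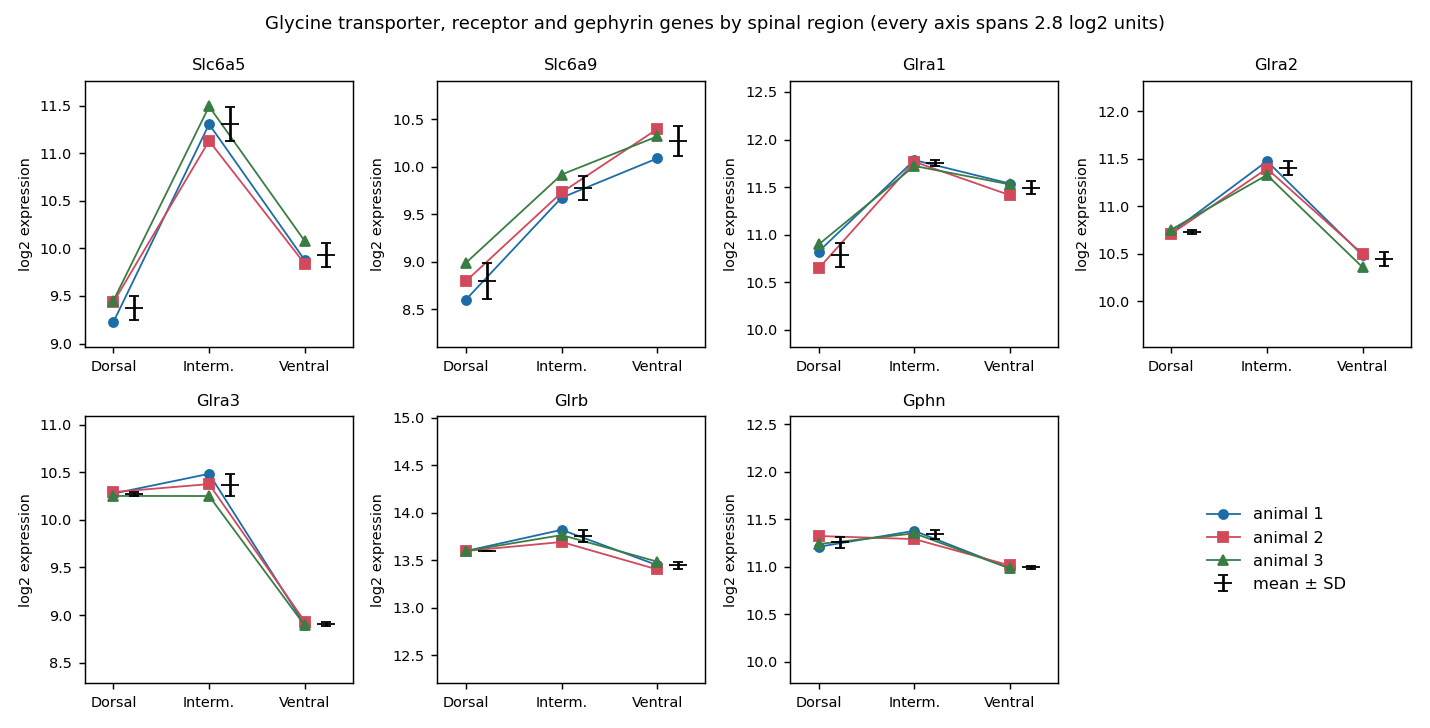
Log2 expression of the 7 genes (vertical axes, each spanning 2.8 log2 units) in the dorsal, intermediate and ventral region (horizontal axis). Points joined by a line are the 3 pieces of 1 animal, and crosses with bars are the mean ± SD of n = 3; Slc6a5, Glra1 and Glra2 peak in the intermediate region, Slc6a9 is highest in the ventral region, and Glra3 is low in the ventral region.

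Slc6a5, the neuronal transporter gene, had the widest difference of the 7 genes between any pair of regions. Its dorsal values were 9.23, 9.43 and 9.45 in animals 1, 2 and 3, its intermediate values 11.31, 11.13 and 11.49, and its ventral values 9.88, 9.84 and 10.08. The intermediate pieces were the highest in every animal and the dorsal pieces the lowest, and no value of 1 region overlapped another region's. The intermediate mean of 11.31 ± 0.18 exceeded the dorsal mean of 9.37 ± 0.13 by 1.94 ± 0.08, or 3.83-fold (limma, adjusted p = 0.000412), and the ventral mean of 9.93 ± 0.13 by 1.38 ± 0.08, or 2.60-fold (adjusted p = 0.000359). The absolute difference from the dorsal region was at the 98.9th percentile of all genes tested. The ventral region was higher than the dorsal by a smaller step, with a dorsal minus ventral difference of -0.56 ± 0.08 (adjusted p = 0.00368); this call was lost without animal 1 (adjusted p = 0.0533) and without animal 3 (adjusted p = 0.0671). The second Slc6a5 probe set, 1425992_at, stood at the floor on all 9 arrays and carries no information on the regions.

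The 250 bases before the start of the first Slc6a5 entry are shown because this gene had the widest regional difference, with the corresponding window of Slc6a9, the transporter gene with another order of regions. Both windows come from RefSeq on GRCm38.p6 and are written 5′ to 3′ on the strand of the gene. The Slc6a5 window is chr7:49910049-49910298 on the + strand, and the Slc6a9 window is chr4:117835008-117835257 on the + strand. Capitals mark matches, on either strand, to the GC box GGGCGG, the TATA box TATAAA, the CCAAT box CCAAT and the homeodomain core TAATTA; the E-box CANNTG was searched too and is not capitalised.
Slc6a5: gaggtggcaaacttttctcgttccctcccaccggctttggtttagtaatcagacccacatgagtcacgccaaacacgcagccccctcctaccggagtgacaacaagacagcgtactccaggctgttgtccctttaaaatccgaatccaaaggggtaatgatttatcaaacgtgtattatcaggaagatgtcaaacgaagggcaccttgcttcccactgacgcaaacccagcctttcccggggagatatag
Slc6a9: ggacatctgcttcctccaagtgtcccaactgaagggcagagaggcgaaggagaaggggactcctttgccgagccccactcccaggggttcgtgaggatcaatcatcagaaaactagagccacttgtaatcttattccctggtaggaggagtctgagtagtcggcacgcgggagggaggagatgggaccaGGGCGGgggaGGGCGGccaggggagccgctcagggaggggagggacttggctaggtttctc
The Slc6a5 window held 1 E-box and none of the others, and had a GC content of 50.4%. The Slc6a9 window held 4 E-boxes and 2 GC boxes, the latter starting 61 and 51 bases before the start and not overlapping each other, and had a GC content of 60.4%. Both are the windows of entry 1 of their gene. The windows of Slc6a9 entries 2 and 3, not shown, held none of these motifs and had a GC content of 60.8% each. That of Slc6a5 entry 2 held 2 E-boxes and none of the others, with a GC content of 43.6%. The contrast between the genes thus depends on the entry read. Of 32851 mouse windows of the same length, 32.7% held a GC box, 12.4% a TATA box and 33.8% a CCAAT box, 4.84% the homeodomain core and 66.2% an E-box, and the median GC content was 52.4%. These matches describe the letters of the windows, and no array value measures what binds there. Of the 7 genes, 6 had 9 such windows in all.

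Slc6a9, the mainly glial transporter gene, followed another order, rising from the dorsal through the intermediate to the ventral region. Its dorsal values were 8.60, 8.80 and 8.99 in animals 1, 2 and 3, its intermediate values 9.67, 9.73 and 9.92, and its ventral values 10.09, 10.40 and 10.32. That order held in every animal, and the regions did not overlap. The ventral mean of 10.27 ± 0.16 was 2.77-fold the dorsal mean of 8.80 ± 0.19, with a dorsal minus ventral difference of -1.47 ± 0.07 (limma, adjusted p = 0.000115). The intermediate mean of 9.77 ± 0.13 lay between them, 0.98 ± 0.07 above the dorsal (adjusted p = 0.00112) and with an intermediate minus ventral difference of -0.49 ± 0.07 (adjusted p = 0.00357). The dimmer second probe set, 1431812_a_at, gave the same order in every animal, with region means of 6.41, 6.94 and 7.63 from dorsal to ventral and a dorsal minus ventral difference of -1.22 ± 0.08 (adjusted p = 0.000495 over 31526 probe sets, 42.9% of which were called in that comparison). Its 3 intermediate values were identical at 6.94, which makes its spread look smaller than it may be.

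Within 1 array, the balance of the transporter genes can be followed as the difference of their log2 values, whose change across regions shows unequal change. Slc6a5 minus Slc6a9 was 0.62, 0.64 and 0.46 in the dorsal pieces of animals 1, 2 and 3, 1.63, 1.40 and 1.57 in the intermediate pieces, and -0.21, -0.56 and -0.24 in the ventral pieces. The balance was thus farthest toward the neuronal transporter in the intermediate pieces and farthest toward the glial one in the ventral pieces, with no overlap between regions. Region means of this difference spanned 1.87 log2 units, against a pooled SD of 0.14 (exact permutation of region labels within animals, p = 0.0278, the smallest this design can give, and p = 0.037 when adjusted over 8 gene pairs). All 8 pairs were chosen with earlier results of these data known. Their tests use the same values as those of the single genes and are not independent support.

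**Figure D2:**
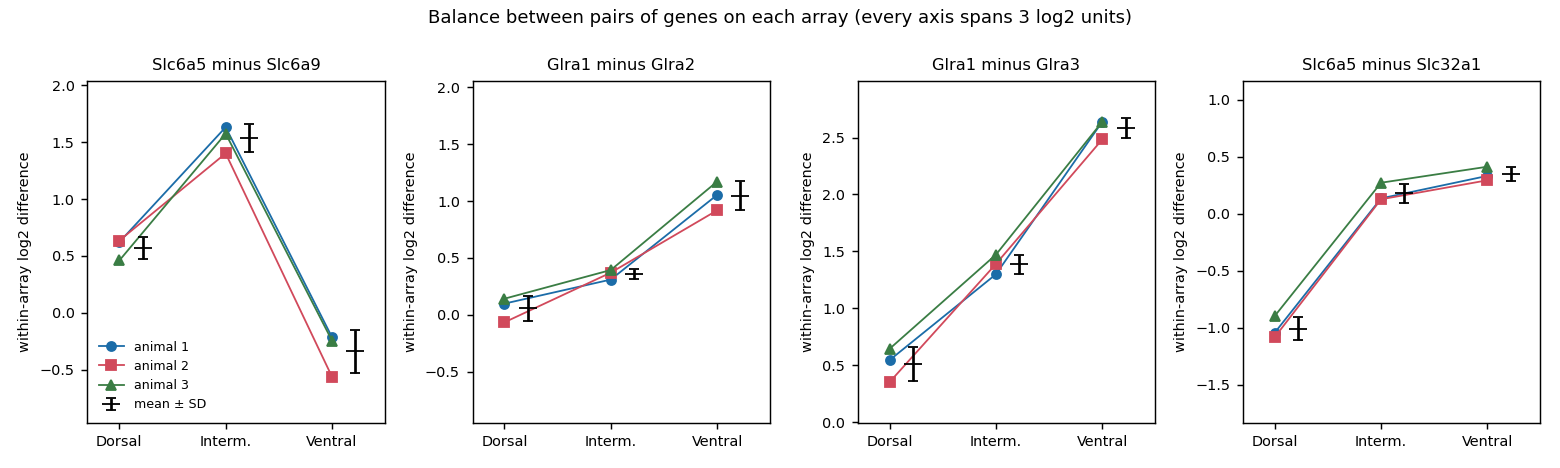
Within-array log2 difference (vertical axes, each spanning 3 log2 units) of 4 pairs of genes in the dorsal, intermediate and ventral region (horizontal axis), with the 3 pieces of 1 animal joined by a line and the mean ± SD of n = 3 beside them. Slc6a5 minus Slc6a9 peaks in the intermediate region, while Glra1 minus Glra2, Glra1 minus Glra3 and Slc6a5 minus Slc32a1 climb from the dorsal to the ventral region.

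Among the alpha subunits, Glra1, whose mutations cause startle disease, was lowest in the dorsal region. Its dorsal values were 10.82, 10.65 and 10.90, its intermediate values 11.78, 11.77 and 11.72, and its ventral values 11.54, 11.41 and 11.53 in animals 1, 2 and 3. The dorsal values lay well apart from the others, while the intermediate and ventral values were close without overlapping. The intermediate mean of 11.76 ± 0.03 exceeded the dorsal mean of 10.79 ± 0.13 by 0.97 ± 0.06, or 1.96-fold (limma, adjusted p = 0.000762), and the dorsal minus ventral difference was -0.70 ± 0.06 (adjusted p = 0.000513). The step from the ventral mean of 11.49 ± 0.07 to the intermediate was 0.26 ± 0.06 (adjusted p = 0.0157), and this call was lost without animal 1 (adjusted p = 0.139), without animal 2 (adjusted p = 0.0518) and with the mean of the gene's probe sets (adjusted p = 0.142). The dim second probe set, 1422277_at, ran between 5.36 and 6.01 and gave differences of 0.41 ± 0.11 for intermediate minus dorsal, -0.36 ± 0.11 for dorsal minus ventral and 0.06 ± 0.11 for intermediate minus ventral, none of which was called (adjusted p = 0.0545, 0.0501 and 0.784).

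Glra2, the subunit of the newborn cord, was highest in the intermediate region and lowest in the ventral region. Its dorsal values were 10.72, 10.71 and 10.75, its intermediate values 11.47, 11.40 and 11.33, and its ventral values 10.48, 10.50 and 10.36. The 3 regions did not overlap, and the outer regions lay closer to each other than to the intermediate region. The intermediate mean of 11.40 ± 0.07 exceeded the dorsal mean of 10.73 ± 0.02 by 0.67 ± 0.04 (limma, adjusted p = 0.00101) and the ventral mean of 10.45 ± 0.08 by 0.95 ± 0.04, or 1.94-fold (adjusted p = 0.000239). The dorsal region was above the ventral by 0.28 ± 0.04 (adjusted p = 0.00488). All 3 calls held without each animal in turn.

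Glra3, the subunit of the superficial dorsal horn, was low in the ventral region. Its dorsal values were 10.28, 10.29 and 10.25, its intermediate values 10.48, 10.38 and 10.25, and its ventral values 8.90, 8.93 and 8.89. Dorsal and intermediate values overlapped, and every ventral value was more than 1 log2 unit below them. The ventral mean of 8.91 ± 0.02 was 2.58-fold below the dorsal mean of 10.27 ± 0.02, a difference of 1.37 ± 0.05 (limma, adjusted p = 6.47e-05), and 2.76-fold below the intermediate mean of 10.37 ± 0.12, a difference of 1.46 ± 0.05 (adjusted p = 0.000146). Intermediate minus dorsal was 0.10 ± 0.05 and was not called (95% interval -0.03 to 0.22, adjusted p = 0.213). The second Glra3 probe set, 1450239_at, stood at the floor on all arrays, as did the probe set of Glra4, the remaining alpha subunit gene.

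Because the alpha subunit genes had different regional profiles, the balance between them differed between the dorsal, intermediate and ventral regions. Glra1 minus Glra2 was 0.10, -0.06 and 0.14 in the dorsal pieces of animals 1, 2 and 3, 0.31, 0.37 and 0.39 in the intermediate pieces, and 1.05, 0.92 and 1.17 in the ventral pieces. Glra1 minus Glra3 was 0.55, 0.35 and 0.65 in the dorsal pieces, 1.30, 1.39 and 1.47 in the intermediate pieces, and 2.64, 2.48 and 2.64 in the ventral pieces. In both, every animal moved toward Glra1 at each step from dorsal to ventral. Glra2 minus Glra3 had region means of 0.46 ± 0.04, 1.03 ± 0.04 and 1.54 ± 0.06 in the same order. Regions did not overlap in any of the 3 pairs, and each passed the exact permutation test (p = 0.0278, adjusted p = 0.037). Glra1 minus Glra2 missed it when all probe sets of a gene were averaged (adjusted p = 0.111). These tests restate the single-gene profiles above and are not independent of them. Slc6a5 minus Glra1 was high in the intermediate region alone, with means of -1.42 ± 0.19, -0.45 ± 0.20 and -1.56 ± 0.11 from dorsal to ventral (exact permutation p = 0.0278, adjusted p = 0.037, but 0.0635 with averaged probe sets).

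Glrb, the beta subunit gene, and Gphn, whose product it binds, changed by less than the alpha subunits. Glrb had the same value of 13.60 in all 3 dorsal pieces, intermediate values of 13.82, 13.69 and 13.77, and ventral values of 13.45, 13.40 and 13.49 in animals 1, 2 and 3. The regions did not overlap, but their means spanned 0.31 log2 units. The intermediate mean was above the dorsal by 0.16 ± 0.03 (limma, adjusted p = 0.0163) and above the ventral by 0.31 ± 0.03 (adjusted p = 0.00112), and the dorsal was above the ventral by 0.15 ± 0.03 (adjusted p = 0.0103). The intermediate minus dorsal call was lost without animal 1, 2 or 3 (adjusted p = 0.106, 0.0560 and 0.144), and the dorsal minus ventral call without animal 2 or 3 (adjusted p = 0.0646 and 0.0740). The second probe set, 1422504_at, was also highest in the intermediate region, by 0.35 ± 0.05 over the dorsal (adjusted p = 0.00914) and 0.38 ± 0.05 over the ventral (adjusted p = 0.00364), while its dorsal minus ventral difference was 0.03 ± 0.05 (adjusted p = 0.631).

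The windows before the starts of Glra2 and Glrb are shown because both genes were called highest in the intermediate region, where Slc6a5 peaked too. Glra1 was also called highest there but had no such window in the source used, so it is left out. Capitals have the same meaning as above, a motif on the opposite strand being printed as its reverse complement. The Glra2 window is chrX:165327394-165327643 and the Glrb window chr3:80913661-80913910, both on the - strand.
Glra2: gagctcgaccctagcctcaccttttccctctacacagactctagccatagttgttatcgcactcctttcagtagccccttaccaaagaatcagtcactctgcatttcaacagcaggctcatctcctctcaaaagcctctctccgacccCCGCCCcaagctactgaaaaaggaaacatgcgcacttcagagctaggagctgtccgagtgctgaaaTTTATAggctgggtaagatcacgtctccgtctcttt
Glrb: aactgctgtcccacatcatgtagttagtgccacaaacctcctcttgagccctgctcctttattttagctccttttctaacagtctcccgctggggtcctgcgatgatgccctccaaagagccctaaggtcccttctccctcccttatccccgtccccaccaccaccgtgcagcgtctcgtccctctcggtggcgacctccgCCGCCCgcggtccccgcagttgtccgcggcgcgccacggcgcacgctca
The Glra2 window held a GC box and a TATA box, starting 102 and 36 bases before the start and both on the strand opposite to the gene, with a GC content of 50.4%. The Glrb window held an E-box and a GC box, the latter starting 49 bases before the start, also on the opposite strand, with a GC content of 62.4%. None of the 5 motifs was in all of the windows of Slc6a5, Glra2 and Glrb.

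Gphn had dorsal values of 11.21, 11.32 and 11.24, intermediate values of 11.38, 11.29 and 11.35, and ventral values of 10.98, 11.01 and 10.98 on its brightest probe set, 1426462_at. The ventral values were the lowest, and dorsal and intermediate values overlapped. The ventral region was below the intermediate by 0.35 ± 0.04 (limma, adjusted p = 0.00208) and below the dorsal by 0.26 ± 0.04 (adjusted p = 0.00438), and both calls were lost without animal 3 (adjusted p = 0.0546 and 0.0704). Intermediate minus dorsal was 0.08 ± 0.04 and was not called (95% interval -0.02 to 0.19, adjusted p = 0.202), although it passed without animal 2 (0.14, adjusted p = 0.0487).

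The Gphn probe sets disagreed in direction. The probe set 1426463_at followed the brightest one, with region means of 9.20, 9.22 and 8.91 from dorsal to ventral and the ventral region lower than the intermediate by 0.31 ± 0.06 (adjusted p = 0.0127 over all probe sets). The probe set 1430038_at read 8.99, 8.98 and 8.98 in the dorsal pieces, 9.08, 9.08 and 9.05 in the intermediate pieces and 9.67, 9.71 and 9.53 in the ventral pieces. There the ventral values were the highest in every animal, with an intermediate minus ventral difference of -0.56 ± 0.04 (adjusted p = 0.000839) and a dorsal minus ventral difference of -0.65 ± 0.04 (adjusted p = 0.000363). The regional direction of Gphn therefore depends on the probe set read. Over all 31526 probe sets, 36.8% were called for intermediate against ventral and 42.9% for dorsal against ventral.

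**Figure D3:**
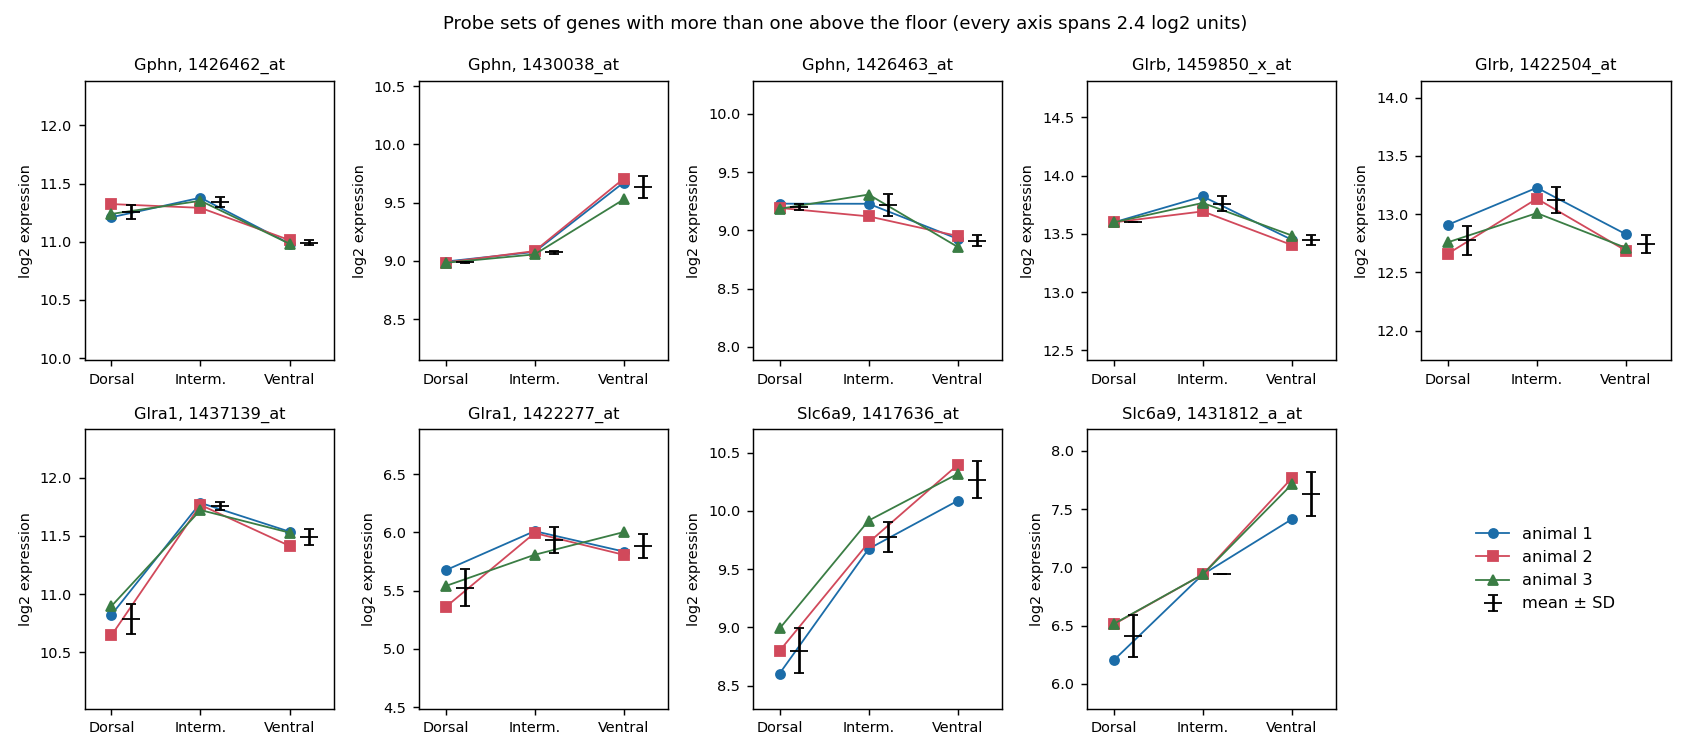
Log2 expression (vertical axes, each spanning 2.4 log2 units) of the 9 probe sets of genes with more than 1 above the floor, by region (horizontal axis), with the 3 pieces of 1 animal joined by a line and the mean ± SD of n = 3. The probe sets of Slc6a9 and Glrb agree in which region is highest, whereas Gphn 1430038_at is highest in the ventral region, unlike the other Gphn probe sets.

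Relative to Glrb, the alpha subunits differed. Glra2 minus Glrb had means of -2.87 ± 0.02, -2.36 ± 0.07 and -3.00 ± 0.11 from dorsal to ventral and passed the exact permutation test (p = 0.0278, adjusted p = 0.037). Glra1 minus Glrb had means of -2.81 ± 0.13, -2.00 ± 0.07 and -1.95 ± 0.04, with the dorsal pieces lowest in every animal, but intermediate and ventral values overlapped and the test was not passed (exact permutation p = 0.0556, adjusted p = 0.0556). Glrb minus Gphn went from 2.34 ± 0.06 through 2.42 ± 0.02 to 2.45 ± 0.06, a span of 0.11, and was not called on these probe sets (exact permutation p = 0.0556, adjusted p = 0.0556). Both of these pairs passed under other probe set rules: when each gene was read from its most variable probe set, Glra1 minus Glrb spanned 0.74 and Glrb minus Gphn 0.94 (exact permutation, adjusted p = 0.0278 for each), and with the mean of all probe sets they spanned 0.62 and 0.32 (adjusted p = 0.037 for each).

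**Figure D4:**
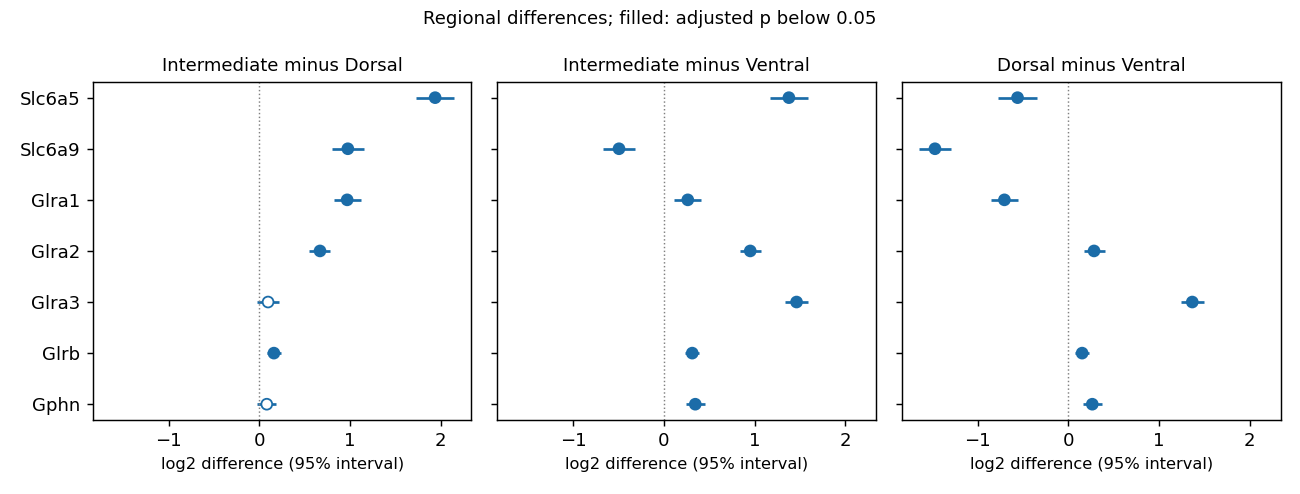
Log2 differences of the 7 genes (horizontal axes) between each pair of regions, with bars for the 95% interval of the model and filled points for an adjusted p below 0.05. Slc6a5 leads the intermediate minus dorsal panel at 1.94, Glra3 and Slc6a5 lead intermediate minus ventral at 1.46 and 1.38, and dorsal minus ventral holds Slc6a9 at -1.47 and Glra3 at 1.37 on opposite sides.

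Slc6a5 was set beside the genes for GABA synthesis and vesicle loading, a comparison added with the values in view and given with no test. Slc32a1, which loads both transmitters, had region means of 10.38 ± 0.13, 11.13 ± 0.11 and 9.58 ± 0.07 from dorsal to ventral. Slc6a5 minus Slc32a1 was -1.01 ± 0.10 in the dorsal, 0.18 ± 0.08 in the intermediate and 0.35 ± 0.06 in the ventral region, so that every animal moved toward Slc6a5 at each step. Gad1, which encodes the GABA-synthesising enzyme GAD67, had means of 14.00 ± 0.07, 12.93 ± 0.12 and 10.75 ± 0.14, and Slc6a5 minus Gad1 went from -4.63 ± 0.12 through -1.63 ± 0.30 to -0.82 ± 0.11. Gad2, the gene for GAD65, peaked like Slc6a5 in the intermediate region at 11.69 ± 0.06, and Slc6a5 minus Gad2 went from -1.06 ± 0.08 through -0.38 ± 0.13 to 0.17 ± 0.16. Against the mean of the 3 genes, Slc6a5 was at -2.23 ± 0.09, -0.61 ± 0.17 and -0.10 ± 0.10, with no overlap between regions.

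Of the 14 inhibitory neuron markers, 12 had a probe set with 1 gene symbol and 9 were tested. For intermediate minus dorsal 3 were called higher (1 without animal 1 or 3) and 4 lower, and against the ventral region 5 were higher in the intermediate and 6 in the dorsal, with 0 lower in either. The shares for intermediate minus dorsal were 33.3% higher and 44.4% lower, beside 15.9% and 14.2% of all genes. Against the ventral region, 55.6% were higher in the intermediate and 66.7% in the dorsal, beside 23.4% and 24.5% of all genes. Their summed level, as log2 of the sum of linear values, ran from 14.26 to 14.39 in the dorsal, 13.71 to 13.79 in the intermediate and 11.70 to 11.89 in the ventral region. Its order differed from that of Slc6a5, but Gad1, the brightest gene of the list, weighs most in this sum. The 4 called lower for intermediate minus dorsal were Gad1 (-1.06), Lhx1 (-1.28), Gbx1 (-3.52) and the dim Pax8 (-0.41). Gad1, Lhx1 and Gbx1 fell from the dorsal through the intermediate to the ventral region, unlike Slc6a5. The 3 called higher were Gad2 (10.43, 11.69 and 9.76 from dorsal to ventral), Slc32a1 (10.38, 11.13 and 9.58) and the dim Lhx5. Gad2 and Slc32a1 peaked in the intermediate region like Slc6a5, while Lhx5 was not called against the ventral region. Ptf1a, Gata3 and En1 were at the floor on all arrays. Of 12 pan-neuronal markers, 11 were higher in the intermediate than in the ventral region and 5 higher and 2 lower than in the dorsal (3 and 1 higher without animals 1 and 3), with summed levels of 16.51 to 16.69, 16.74 to 16.84 and 16.24 to 16.28 from dorsal to ventral. These are 91.7%, 41.7% and 16.7% of that list, beside 23.4%, 15.9% and 14.2% of all genes. Of 8 excitatory neuron markers tested, 5 (62.5%) were higher in the intermediate than in the ventral region (2, 3 and 3 without animals 1, 2 and 3). Likewise 5 (62.5%) were higher in the dorsal than in the ventral region, with 0 lower in either. For intermediate minus dorsal, 0 were higher and 4 (50%) lower. Of 10 meningeal and fibroblast markers, 9 were lower in the intermediate than in the dorsal region and 10 lower than in the ventral (90% and 100%, beside 14.2% and 24.9% of all genes), with summed levels of 13.69 to 14.79, 11.65 to 11.97 and 14.11 to 14.55. The 9 fell to 3 without animal 1 and to 0 without animal 3. Of 10 microglia markers, 9 (90%) were lower in the intermediate than in each other region, with 0 higher. Of 5 Schwann cell markers tested, 4 (80%) were lower than in the dorsal and 4 than in the ventral region, with 0 higher. These were not the same 4, since Cdh19 was not called against the dorsal region and Drp2 not against the ventral. Without animals 1, 2 and 3, the counts below the dorsal region were 0, 5 and 0 for microglia and 2, 3 and 0 for Schwann cells. Below the ventral region they were 5, 7 and 5, and 4, 2 and 2. The part of these markers in the regional levels of Slc6a5, the receptor genes and Gphn was not tested. Of the motor neuron markers, Chat, Slc5a7 and Slc18a3 were at the floor on all arrays, while Prph stood at 9.41 ± 0.24 in the ventral region and at 2.15 and 2.25 in the others. Isl1 differed from Prph, with 2.41 ± 0.32, 6.94 ± 0.46 and 6.92 ± 0.37 from dorsal to ventral. Of the 6 tested, 3 were lower in the intermediate and 4 in the dorsal than in the ventral region, with 0 higher. These are 50% and 66.7%, beside 24.9% and 28.2% of all genes. For intermediate minus dorsal, 2 were higher (1 without animal 1 or 2) and 0 lower, or 33.3% higher beside 15.9%.

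Slc6a9 had the order of regions of the summed astrocyte markers, and the oligodendrocyte and endothelial markers were likewise highest in the ventral region. All 13 astrocyte markers were lower in the dorsal than in the ventral region, 10 were lower in the intermediate than in the ventral, and 8 were higher and 1 lower in the intermediate than in the dorsal. These are 100%, 76.9%, 61.5% and 7.69% of the list, beside 28.2%, 24.9%, 15.9% and 14.2% of all genes. Without animal 1 or 3, the 10 became 6 or 7 and the 8 became 6 or 5. None of the 13 was at the floor on any array, and their summed level ran from 16.60 to 16.73 in the dorsal, 16.91 to 17.00 in the intermediate and 17.31 to 17.35 in the ventral region. Slc1a3, the gene for the glutamate transporter GLAST, had region means of 12.04 ± 0.13, 13.04 ± 0.05 and 13.52 ± 0.05. Slc6a9 minus Slc1a3, a difference chosen after the values were seen, was -3.24 ± 0.22, -3.26 ± 0.16 and -3.25 ± 0.19 from dorsal to ventral, so that the region means differed by less than the SD of 1 region. Other astrocyte markers, also chosen after their values were seen, gave other patterns: Slc6a9 minus Fgfr3 was -3.65 ± 0.15, -3.36 ± 0.15 and -3.38 ± 0.17, with the dorsal region lowest, and Slc6a9 minus Slc7a10 was -0.24 ± 0.14, -0.60 ± 0.07 and -0.45 ± 0.11, with the dorsal region highest. Against the mean of the 13 markers, Slc6a9 was at -3.04 ± 0.15, -2.38 ± 0.09 and -2.51 ± 0.13, lower in every dorsal piece than in any other. Of 12 oligodendrocyte lineage markers, 11 were lower in the dorsal and 11 in the intermediate than in the ventral region, and 4 were higher and 0 lower in the intermediate than in the dorsal, with summed levels of 16.81 to 16.95, 16.83 to 17.07 and 17.58 to 17.66. The dorsal and intermediate sums overlapped. The shares were 91.7%, 91.7% and 33.3%, beside 28.2%, 24.9% and 15.9% of all genes. Of 7 endothelial markers, 5 were lower in the dorsal (2 without animal 3) and 5 in the intermediate than in the ventral region (3 without animal 3), and 1 was higher in the intermediate than in the dorsal (0 without any 1 animal), with summed levels of 10.70 to 10.93, 10.90 to 10.97 and 11.61 to 11.73, the first and second ranges overlapping. The 5 are 71.4% in each comparison, beside 28.2% and 24.9% of all genes. The 1 is 14.3%, close to the 15.9% of all genes. The part of these cell types in the regional levels of Slc6a9 was not tested.

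Of 11 genes of glycine and serine supply and breakdown, 9 were tested, and 7 of them were higher in the ventral than in the dorsal region and 1 lower, as was so without each animal. These are 77.8% and 11.1% of the genes tested, beside 28.2% and 24.5% over all genes. The median dorsal minus ventral difference of the list was -0.54, beside 0.00 over all genes. Phgdh and Psat1, of serine synthesis, were higher in the ventral than in the intermediate region, with intermediate minus ventral differences of -0.84 ± 0.04 (adjusted p = 0.000213) and -1.05 ± 0.11 (adjusted p = 0.00138). Gldc, of the glycine cleavage system, was lowest in the dorsal region at 6.68 ± 0.15, beside 7.60 ± 0.09 in the ventral, a dorsal minus ventral difference of -0.92 ± 0.06 (adjusted p = 0.000314). Srr, which makes D-serine, ran the other way, from 9.08 ± 0.21 in the dorsal to 7.93 ± 0.09 in the ventral region, a difference of 1.15 ± 0.09 (adjusted p = 0.00050). For intermediate minus dorsal, 4 of the list were higher and 2 lower, and these counts fell to 1 and 1 without animal 1 and to 2 and 0 without animal 3; against the ventral region 1 was higher and 6 lower, the 1, Srr, being lost without animal 1 or 3. The shares were 44.4% and 22.2% beside 15.9% and 14.2% of all genes, and 11.1% and 66.7% beside 23.4% and 24.9%.

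Of 13 other genes for carriers that accept glycine, 11 were tested. For intermediate minus dorsal, 4 were higher and 0 lower (1 and 2 higher without animals 1 and 3), and against the ventral region 3 were higher and 4 lower (2 lower without animal 1). Between the outer regions, 2 were higher in the dorsal and 4 lower. The shares against the ventral region, 27.3% higher and 36.4% lower for the intermediate and 18.2% and 36.4% for the dorsal, stood beside 23.4%, 24.9%, 24.5% and 28.2% over all genes, and the 36.4% higher for intermediate minus dorsal beside 15.9%. Slc32a1, which is also an inhibitory neuron marker, was higher in the intermediate than in the ventral region by 1.55 ± 0.09 (adjusted p = 0.000351), in the dorsal than in the ventral by 0.80 ± 0.09 (adjusted p = 0.00155), and in the intermediate than in the dorsal by 0.75 ± 0.09 (adjusted p = 0.00479), the last call being lost without animal 1 (0.0779) or animal 3 (0.0912). Slc7a10, a carrier of small neutral amino acids that is also on the astrocyte list, had the order of Slc6a9, with 9.03 ± 0.22, 10.37 ± 0.09 and 10.72 ± 0.13 from dorsal to ventral and a dorsal minus ventral difference of -1.69 ± 0.09 (adjusted p = 0.00017). Slc38a1, a glutamine carrier, was higher in the intermediate than in the ventral region by 0.67 ± 0.03 (adjusted p = 0.000227). The dim Slc38a5 was lower there, with a difference of -1.17 ± 0.15 (adjusted p = 0.00282, but 0.0606 without animal 1).

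Of 24 gephyrin partners and other genes of the inhibitory postsynaptic scaffold, 19 were tested. Against the ventral region, 10 were higher in the intermediate and 6 lower, and 8 were higher in the dorsal and 6 lower (3 lower without animal 2 and 4 without animal 1); for intermediate minus dorsal, 3 were higher and 3 lower, and these fell to 0 and 2 without animal 1 and to 1 and 1 without animal 3. The 3 and 3 are 15.8% each, close to the 15.9% and 14.2% of all genes. Against the ventral region, the shares were 52.6% higher and 31.6% lower for the intermediate, beside 23.4% and 24.9% of all genes, and 42.1% and 31.6% for the dorsal, beside 24.5% and 28.2%, with list medians of 0.22 and 0.13. Iqsec3, which encodes a gephyrin-binding exchange factor, had means of 10.04 ± 0.23, 8.85 and 7.67 ± 0.15 from dorsal to ventral, and its dorsal minus ventral difference was 2.37 ± 0.11 (adjusted p = 0.000109). Nbea, whose product takes part in receptor trafficking, was higher in the dorsal than in the ventral region by 1.17 ± 0.05 (adjusted p = 9.77e-05). Lhfpl4, which encodes an auxiliary subunit of GABA-A receptors, and Bsn, which encodes the presynaptic protein bassoon, had near equal dorsal and intermediate means and ventral means lower by 0.74 ± 0.07 and 0.97 ± 0.05 than the intermediate (adjusted p = 0.000923 and 0.000294). Gephyrin also completes the synthesis of the molybdenum cofactor, and of 11 genes of that pathway and its enzymes 8 were tested: 4 were higher in the ventral than in the dorsal region and 4 than in the intermediate, with 0 lower. These are 50% in each comparison, beside 28.2% and 24.9% of all genes. They were Suox, the sulfite oxidase gene, Mtarc2, Mocs2 and Nfs1, whose dorsal minus ventral differences were -0.81, -0.40, -0.45 and -0.41. Without animal 1, 2 genes of the list were called higher in the ventral than in the intermediate region. For intermediate minus dorsal 2 were higher and 1 lower (25% and 12.5%, beside 15.9% and 14.2% of all genes), and 0 of either without animal 1.

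Of 14 chloride transport genes, 12 were tested. Against the ventral region, 6 were higher in the intermediate and 4 lower, and 5 were higher in the dorsal and 4 lower, whereas 2 were higher and 0 lower for intermediate minus dorsal (1, 1 and 0 higher without animals 1, 2 and 3). Without animal 2 or 3, the 6 became 3 and the 5 became 2. The shares against the ventral region were 50% higher and 33.3% lower for the intermediate, beside 23.4% and 24.9% of all genes, and 41.7% and 33.3% for the dorsal, beside 24.5% and 28.2%, while the 16.7% higher for intermediate minus dorsal was close to the 15.9% of all genes. The list medians of 0.06, 0.01 and 0.01 lay near 0.00. Slc12a5, which encodes the chloride extruder KCC2, had means of 13.23 ± 0.14, 13.15 ± 0.04 and 12.04 ± 0.03 from dorsal to ventral, with the ventral region lower than the intermediate by 1.11 ± 0.07 (adjusted p = 0.000416). Slc12a2, which encodes the chloride importer NKCC1, had means of 11.40 ± 0.10, 11.34 ± 0.12 and 12.44 ± 0.04, an intermediate minus ventral difference of -1.10 ± 0.05 (adjusted p = 0.000257). Stk39, which encodes the kinase SPAK that acts on both, and Slc12a4 were also lower in the dorsal than in the ventral region, by differences of -1.21 ± 0.06 for Stk39 (adjusted p = 0.000167) and -1.26 ± 0.12 for Slc12a4 (adjusted p = 0.000918).

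**Figure D5:**
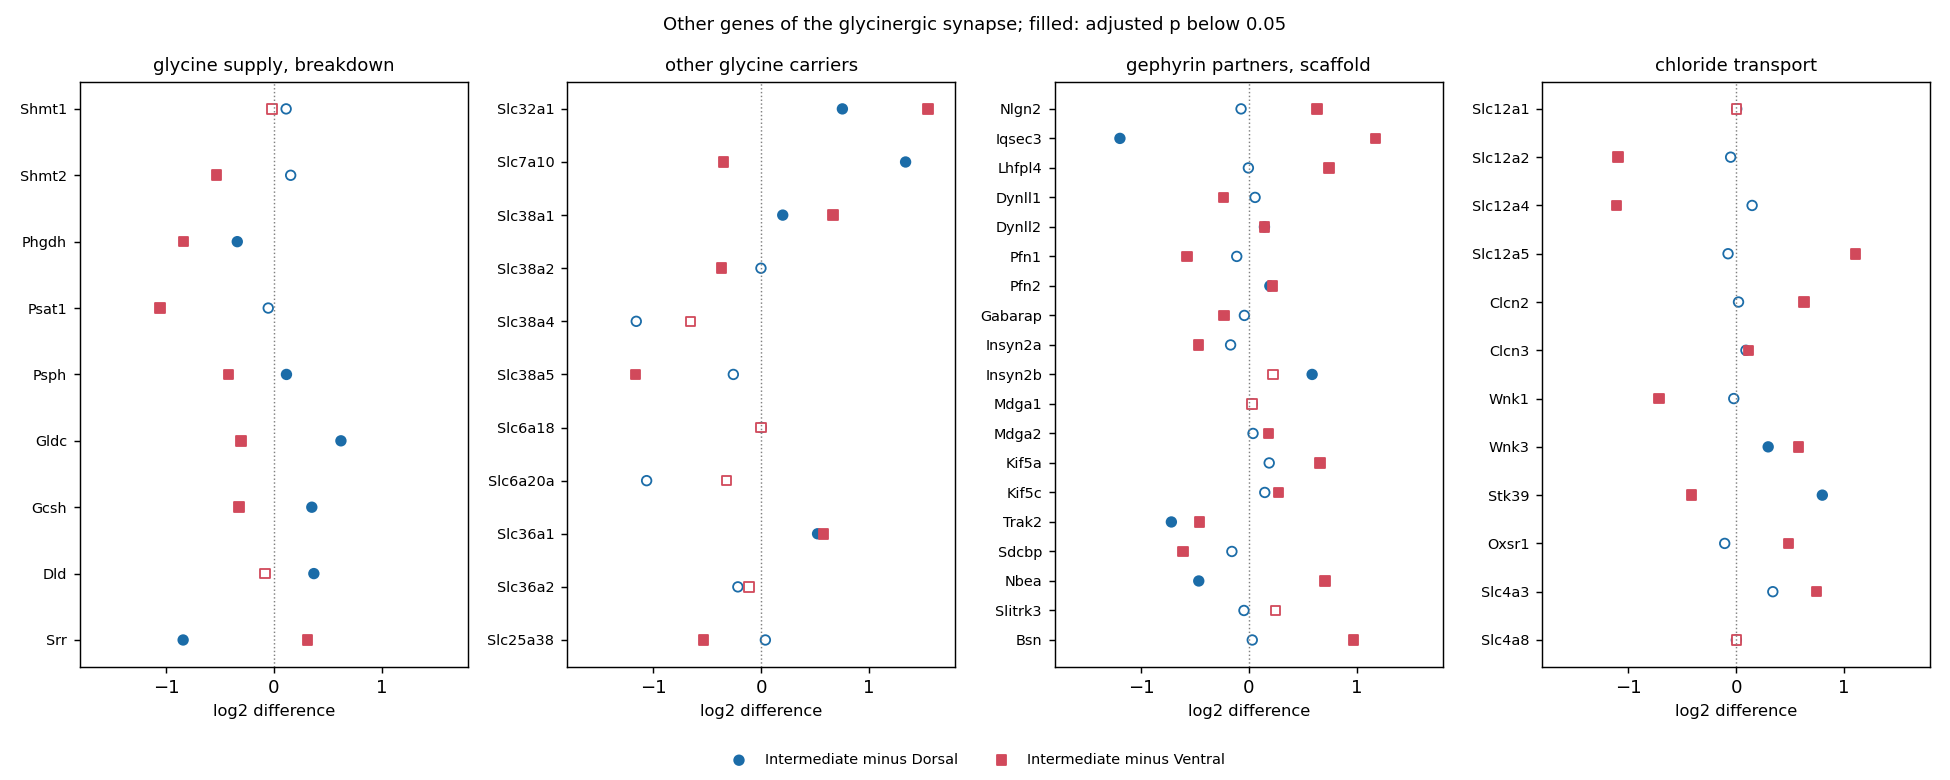
Log2 differences (horizontal axes) of the tested genes of 4 lists, with circles for intermediate minus dorsal, squares for intermediate minus ventral, and filled symbols for an adjusted p below 0.05. Slc32a1 lies to the right for both comparisons, Iqsec3 has the comparisons on opposite sides, and Slc12a5 and Slc12a2 lie on opposite sides for intermediate minus ventral.

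For each of the 7 genes, the 3 genes with the most similar values were taken by Pearson's r over the 9 arrays among the 5451 or 5452 others whose region means spanned at least 0.5. The arrays share 3 regions and 3 animals, so a high r mainly reflects equal order and spacing of 3 region means, and it is given as a description. Slc6a5 was nearest to Slc8a1, Smim17 and Hoxd9 (r = 0.996, 0.996 and 0.991). Slc6a9 was nearest to Apoc1, Gm2a and Pdgfra (0.996, 0.995 and 0.995), and Glra1 to Epha4, Endog and Spsb4 (0.998, 0.993 and 0.990). Glra2 was nearest to Akap5, Ptx3 and Tfap2a (0.992, 0.991 and 0.990), and Glra3 to N4bp2l1, Scai and Sgip1 (0.998, 0.997 and 0.996). Glrb was nearest to Gjd2, Ndnf and Serpini1 (0.985, 0.984 and 0.983), and Gphn to Atp6ap2, Mapk8ip2 and Far2 (0.996, 0.996 and 0.994).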

How the data were processed

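RNA of 9 spinal cord pieces was measured on Affymetrix arrays from 500 ng of total RNA with a 3' in vitro transcription kit, per the labels' protocols. The deposited values were read as log2 from their range. The authors' summarisation, normalisation and floor: not given in the sources used here. Probe sets were named by the platform annotation (34945 with 1 symbol, 932 with several, 9160 with none), and a current list of genes left the symbols of all 14 probe sets of the 7 genes unchanged. Genes were read from their brightest single-symbol probe set and kept if its mean over arrays was at or above percentile 30 of the means of all probe sets; all 7 genes and 12 of the 14 probe sets passed. limma 3.58.1 in R 4.3.3 (data.table version 1.17.8) fitted region and animal to all 9 arrays, with 4 residual and 0.749 prior degrees of freedom; intervals are at 95%. The script was tested on simulated data. Figures used Python 3.11.15 and matplotlib 3.10.9.

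The titles name the animal of each array, which is the source of the pairing. Deviations from region means correlated across genes at -0.066 to 0.246 for same-animal arrays (9 pairs) and at -0.180 to 0.161 for others (18 pairs).

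The 7 genes, the gene lists and the pairs were chosen with earlier results of these data known. Named were all 7 genes, up to 4 called genes of each pathway list by largest difference, Slc32a1, Glra4 and Slc12a5 always (1 further gene of that rule is not reported here), and the 3 genes most like each member. Other differences are marked where chosen after their values were seen. The alternatives tried were the fit without the block, each animal left out, median centring, quantile normalization, other filters and probe set rules, fits of 2 regions, genes with 9 distinct values, and a trended robust prior. The number of arrays limits the precision.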

Additional observations from a re-analysis of the deposited data

How the results depend on the processing

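Most differences of the 7 genes kept their direction and side of the threshold: of 291 values under the alternatives, 271 did, 16 lost a call, 1 gained one and 3 changed sign. Alternatives that changed only the block, the filter, the prior or the regions fitted leave each difference the same by construction. Under those only the calls could change, so the count of kept directions is partly fixed in advance. The sign changes were those of Gphn, at -0.56 for intermediate minus ventral and -0.65 for dorsal minus ventral with the most variable probe set per gene, which for Gphn is 1430038_at, and at -0.031 for dorsal minus ventral with the mean of all probe sets. The most variable probe set also gave 2 genes lower for intermediate minus ventral and 2 higher for dorsal minus ventral. Leaving out each animal gave between 2 and 4 genes higher for dorsal minus ventral. The fit with no animal block cannot change the differences, such as the 1.94 of Slc6a5 for intermediate minus dorsal. It changed no call of the 7 genes, with 5, 6 and 4 genes higher in the 3 comparisons. Spans of within-array differences that crossed the threshold were Glra1 minus Glrb at 0.739 and Glrb minus Gphn at 0.945 with the most variable probe set, and 0.625 and 0.317 with the mean, where both passed; Glra1 minus Glra2 at 0.815 and Slc6a5 minus Glra1 at 0.529 no longer passed with the mean. With an animal left out that test cannot pass, and Glra2 minus Glra3 spanned 1.05 to 1.14. Glrb lost its dorsal minus ventral call after median centring (adjusted p = 0.0741) and with its other probe set (0.599; range over its alternatives 0.00822 to 0.599), and its intermediate minus dorsal call when those regions were fitted alone (0.0931; range 0.00214 to 0.144). Over all genes, 4202 were called for intermediate minus dorsal, beside 1903, 2454 and 1464 without animals 1, 2 and 3 and 2105 from those regions alone. Of the 4202, 52.8% were higher, beside 67.7% of the calls after median centring. For intermediate minus ventral 6731 were called, beside 4200 without animal 3. The second probe sets of Slc6a5 and Glra3 lay at the floor, so signal over background limits what they can show.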
